A study of Mus musculus with 4 samples.

Results

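Translation initiation and elongation factors are the proteins that load ribosomes onto messenger RNA and move them along it. The genes described here were those listed in all 4 expression tables whose symbol begins with Eif or Eef and a number. Of 64 such genes, 6 were set aside by name: the kinases Eif2ak1, Eif2ak2, Eif2ak3 and Eif2ak4, the 4E-binding protein gene Eif4ebp1 and the Y-linked Eif2s3y. The remaining 58 genes were followed, out of 14469 genes listed in all 4 tables. They comprised 39 genes of the initiation core, 7 of the elongation core and 12 others, such as enzymes that modify the factors and proteins named after a factor that act elsewhere.

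The RNA came from CD4+ T cells of C57BL/6 mice aged 6 to 8 weeks. Naive cells (CD44lo CD62Lhi) of the spleen and lymph nodes were sorted, activated with antibodies to CD3 and CD28, and kept for 3 days in Th9 conditions, which drive helper T cells that secrete interleukin 9. A group of 2 libraries was wild type and the other group of 2 libraries was labelled BFAR-/-, from mice with a conditional deficiency in T cells. Bfar encodes a membrane-bound ubiquitin ligase of the endoplasmic reticulum. The sources used here do not give the Cre driver, the deleted exons or the sex of the mice, nor do the labels say that libraries of a group came from separate mice. P-values therefore cover the spread among these libraries only, and that spread may be technical.

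The libraries held between 19058009 and 19782923 expected counts. Bfar stood at 36.4 and 33.0 CPM (counts scaled by library depth) in the wild-type libraries and at 8.45 and 7.79 CPM in the knockout libraries, a fall of the labelled gene that left residual reads (log2 fold change -2.09, SE 0.09). Cd3e and Cd4 were expressed in all 4 libraries, at 123 to 146 and 187 to 225 FPKM (fragments scaled by transcript length and library depth), with both knockout libraries above both wild-type libraries for each gene. Il9 ran at 1060 and 995 FPKM in wild type and at 468 and 530 FPKM in the knockout. Of the markers of other cells, the B-cell genes Ms4a1 and Pax5 stayed at or below 0.09 FPKM, the macrophage genes Itgam and Adgre1 at or below 0.16 FPKM, and the natural killer gene Klrb1c at or below 0.02 FPKM. Higher were Cd79b (B cells) at 2.42 to 3.82 FPKM, Cd79a at 0.31 to 0.80 FPKM, Cd68 (macrophages) at 3.38 to 4.08 FPKM, Zbtb46 (dendritic cells) at 0.90 to 1.42 FPKM and Eomes (natural killer cells) at 0.64 to 0.98 FPKM. Cd8b1 stood at 6.06 to 7.02 FPKM, while Cd8a stayed at 0.41 to 0.66 FPKM. Kit, a mast cell marker, was at 0.29 and 0.25 FPKM in wild type and at 0.68 and 0.63 FPKM in the knockout, and Cpa3, Mcpt4 and Fcer1a were not listed. The part of these differences, and of those in the T-cell markers and Il9, in the values that follow was not tested.

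Initiation starts when the GTPase eIF2 brings the initiator tRNA to the small ribosomal subunit, aided by eIF1, eIF1A, eIF3 and eIF5. The exchange factor eIF2B recharges eIF2 with GTP, and the cap-binding assembly eIF4F recruits the messenger RNA. In elongation, eEF1A delivers aminoacyl-tRNA, the eEF1B subunits recharge eEF1A, eEF2 moves the ribosome by a codon, and the hypusine-bearing eIF5A relieves stalled ribosomes. T cells raise their translation capacity strongly after activation.

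Elongation genes led the order of abundance. Over all 58 genes the summed level lay between 16270 and 16770 FPKM. Eef1a1 (chr9:78478453-78481724 in GRCm38) stood at 6208 and 6565 FPKM in wild type and at 6833 and 6941 FPKM in the knockout. Eef2 followed at 1975 and 2016 FPKM against 2066 and 2198 FPKM. Eif5a was the third most abundant, at 1117 and 1094 FPKM against 987 and 980 FPKM. Eef1g, the scaffold subunit of eEF1B, came next at 866 to 894 FPKM over all 4 libraries, ahead of the helicase gene Eif4a1 at 532 to 555 FPKM and Eif1 at 485 to 549 FPKM. At the other end, Eif3j2 was listed at 1.03 to 2.16 FPKM and Eif4e1b, an eIF4E relative known from oocytes, at 0.12 to 0.58 FPKM. The members together took 3.453% and 3.538% of all counts in wild type and 3.497% and 3.538% in the knockout.

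**Figure D1:**
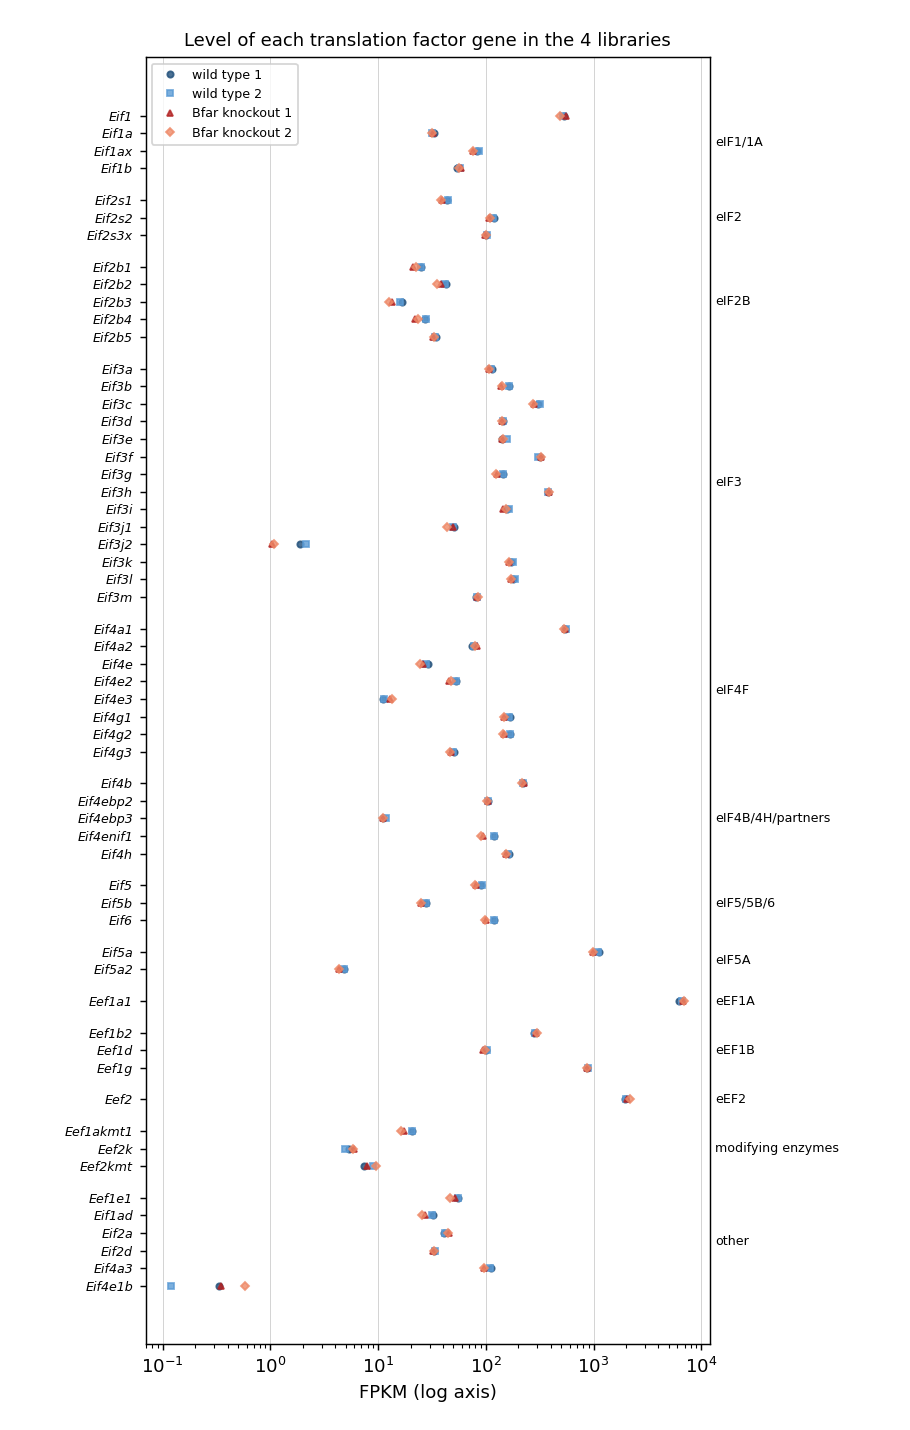
Level of each of the 58 genes in FPKM (log axis), grouped by complex, with a symbol for each of the 4 libraries. Eef1a1 lies between 6208 and 6941 FPKM, while Eif4e1b lies between 0.12 and 0.58 FPKM. For most genes the 4 symbols nearly coincide at this scale.

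The genotypes separated in opposite directions for the initiation and the elongation sums. The summed FPKM of the 39 initiation core genes was 5175 and 5216 in wild type and 4989 and 4892 in the knockout. The sum of the 7 elongation core genes was 10560 and 10960 in wild type and 11140 and 11390 in the knockout. The ratio of elongation to initiation was thus 2.04 and 2.10 in wild type and 2.23 and 2.33 in the knockout, without overlap of the groups. Most of the elongation sum is Eef1a1 and Eef2, with means of 6386 and 1995 FPKM in wild type and 6887 and 2132 FPKM in the knockout. By gene, 3 of the 7 elongation core genes had a positive log2 fold change and 4 a negative one. An exact permutation of 2 against 2 libraries cannot go below p = 0.333, so these sums were not tested. They are shares of each library, and fewer cells of a type and less RNA per cell cannot be told apart in bulk RNA.

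Every one of the 58 genes passed the filter on low counts and was tested with edgeR's quasi-likelihood test, with p-values adjusted (Benjamini-Hochberg) over the 12677 genes tested and a threshold of 0.05. In the knockout 4 members rose (6.9%) and 23 fell (39.7%), while 31 did not pass. Of all genes tested, 26.8% passed, 13.6% higher and 13.2% lower in the knockout. The median log2 fold change was -0.08 over the members and -0.00 over all genes tested. Both knockout libraries lay below both wild-type libraries for 36 members (62.1%), where 31.9% of all genes did so. They lay above for 11 members (19%), where 31.6% of all genes did so. With DESeq2, 2 members were higher and 15 lower, beside 6.99% and 6.12% of all genes tested by that tool. The calls DESeq2 did not make were those of Eef1akmt1, Eef2k, Eif1ax, Eif2b1, Eif2b2, Eif2b3, Eif2s2, Eif4e, Eif4e2 and Eif4e3. Without the filter on low counts those of Eef1a1, Eef1akmt1, Eef2, Eef2k, Eif1ax, Eif2b1, Eif2b2, Eif2s2, Eif4e and Eif4e3 were lost, in a fit over 17432 genes.

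The changes were small, and they were not shared alike between the classes. Of the 39 initiation core genes 18 fell (46.2%) and 1 rose (2.56%), beside 13.2% and 13.6% of all genes tested, with a median log2 fold change of -0.09. The class includes the cap-binding repressor Eif4e2 and Eif6, which keeps large subunits from joining, and both are among the falls. Of the 7 elongation core genes 2 rose, Eef1a1 and Eef2, and 1 fell, Eif5a, with a median of -0.02 that ran from -0.037 without wild-type library 1 to -0.002 without wild-type library 2. Leaving aside eIF5A, which the planned class includes, the 5 genes of eEF1 and eEF2 had 2 rises and a median of 0.08. None of these 5 was called lower, but 2 had negative values. Of those, Eef1d was lower in both knockout libraries (-0.08). The 12 other genes had 1 rise and 4 falls. No test compared one class with the other.

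**Figure D2:**
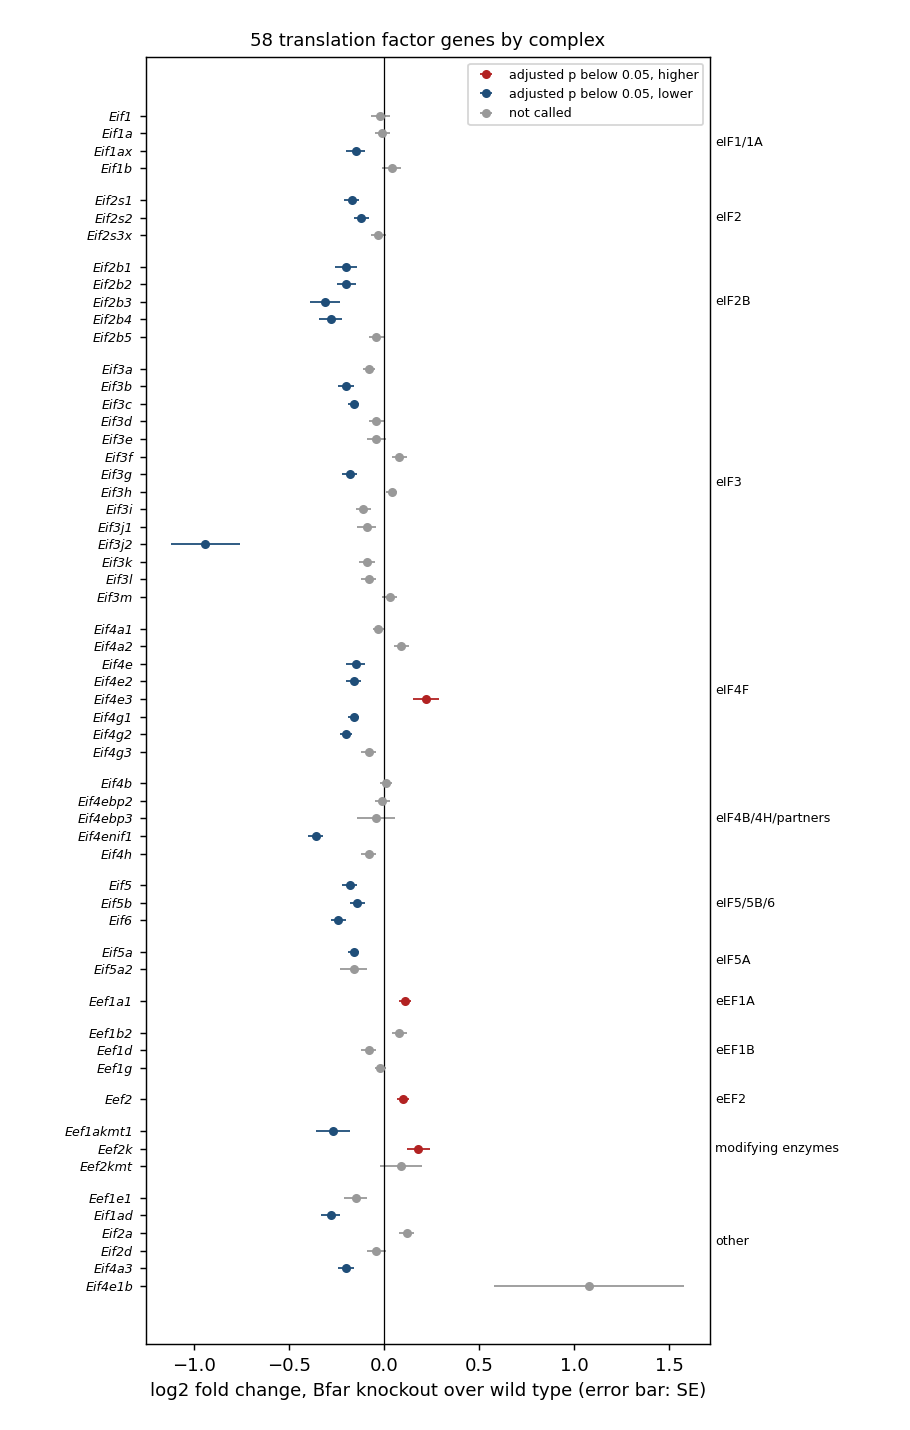
Log2 fold change of each gene, knockout over wild type, with its standard error, grouped by complex. Colours mark the 4 genes that rose, the 23 that fell and the 31 that did not pass the adjusted threshold of 0.05. Eif3j2 at -0.94 and Eif4e1b at 1.08 are the genes with the widest errors.

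The factors that select the start codon differed little. Eif1, which guards start codon choice on the scanning small subunit, was the most abundant of the 4 genes. It stood at 672 and 660 CPM in wild type and at 696 and 616 CPM in the knockout, with overlapping groups (log2 fold change -0.02, SE 0.05). Eif1ax, the X-linked eIF1A gene, was the 1 member of the set that fell (-0.15, SE 0.05, adjusted p = 0.026). Its call was lost without wild-type library 2 (adjusted p = 0.215), without knockout library 1 (0.113) and without knockout library 2 (0.141). Its autosomal copy Eif1a, at 94.9 and 91.9 CPM against 93.6 and 91.6 CPM, and Eif1b overlapped between genotypes.

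Of the 3 listed eIF2 subunits, alpha and beta fell. Eif2s1 encodes the alpha subunit, whose phosphorylation restrains initiation under stress, and it fell (log2 fold change -0.17, SE 0.04, adjusted p = 0.0061). Eif2s2, the beta subunit and the most abundant of the 3 at 117 to 120 FPKM in wild type, stood at 302 and 295 CPM in wild type and at 272 and 277 CPM in the knockout. It fell by 8.04% (-0.12, SE 0.04, adjusted p = 0.0238). Eif2s3x, the X-linked gamma subunit that binds GTP and the tRNA, overlapped at 362 and 372 CPM against 355 and 363 CPM (-0.03, SE 0.04, adjusted p = 0.551). Its Y-linked counterpart Eif2s3y, which is outside the 58, rose from 63.9 and 66.7 CPM to 76.7 and 75.8 CPM (0.22, SE 0.05, adjusted p = 0.00285). The part of the mice's sex in these values was not tested. Without knockout library 1, knockout library 2 or wild-type library 2 the Eif2s1 call was lost (adjusted p = 0.0528, 0.0683 and 0.0524), and the Eif2s2 call was lost when any of the 4 libraries was left out (0.0643 to 0.158).

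All 5 subunits of eIF2B were lower in both knockout libraries than in both wild-type libraries, and 4 of them fell. Of all genes tested, 31.9% were lower in both knockout libraries and 13.2% fell. The summed level of the 5 subunits was 145.8 and 144.4 FPKM in wild type and 127.1 and 126.6 FPKM in the knockout, where it dropped by 12.6%. Eif2b3, the gamma subunit, which partners the catalytic epsilon subunit, stood at 28.0 and 25.9 CPM in wild type and at 21.9 and 21.5 CPM in the knockout (log2 fold change -0.31, SE 0.08, adjusted p = 0.00664). Eif2b4, the regulatory delta subunit, stood at 48.9 and 50.1 CPM against 39.8 and 41.7 CPM (-0.28, SE 0.06, adjusted p = 0.00172). In each of these genes the gap between genotypes exceeded the gap within a genotype. The beta subunit Eif2b2, the most abundant of the 5 in FPKM, stood at 68.1 and 66.9 CPM against 61.4 and 55.9 CPM (-0.20, SE 0.05, adjusted p = 0.0119). The alpha subunit Eif2b1 stood at 50.01 and 50.21 CPM against 42.2 and 45.1 CPM (-0.20, SE 0.06, adjusted p = 0.0156). Eif2b5, which carries the exchange activity, was at 87.7 and 86.0 CPM against 82.9 and 85.8 CPM and did not pass (-0.04, SE 0.04, adjusted p = 0.532). DESeq2 called Eif2b4 (DESeq2 adjusted p = 0.0333) but not Eif2b1, Eif2b2 or Eif2b3 (0.18, 0.113 and 0.0999).

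Among the eIF2B genes the Eif2b4 call was kept when any library was left out. The Eif2b3 call was lost without wild-type library 1 (adjusted p = 0.0658), knockout library 1 (0.066) and knockout library 2 (0.0923). Eif2b2 lost its call without wild-type library 1 (0.0828) and knockout library 2 (0.158), and Eif2b1 without either wild-type library (0.0737 and 0.0779) and without knockout library 1 (0.138). Of the exonic bases of Eif2b4, 7.85% overlap Snx17 on the other strand. The strand setting of the counting is not given, so reads of the overlap cannot be told apart.

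The scaffold eIF3 binds the small subunit and organises the other factors around it. Of its 14 genes 4 fell (28.6%), none rose and 10 did not pass, with a median log2 fold change of -0.09. Of all genes tested, 13.2% fell and 13.6% rose. Without Eif3j2, whose value is uncertain, 3 of 13 eIF3 genes fell (23.1%). Eif3b, a core subunit and scaffold, stood at 484 and 485 CPM in wild type and at 417 and 426 CPM in the knockout (-0.20, SE 0.04, adjusted p = 0.00062). Eif3g, the RNA-binding subunit that sits beside Eif3b, fell by 11.7% (-0.18, SE 0.04, adjusted p = 0.00364), and Eif3c by 10.7% (-0.16, SE 0.03, adjusted p = 0.00284). Without knockout library 2 the calls of Eif3g and Eif3c were lost (adjusted p = 0.0594 and 0.0596). Eif3h, the most abundant subunit, was at 374 and 378 FPKM in wild type and at 387 and 383 FPKM in the knockout, and did not pass (0.04, SE 0.03, adjusted p = 0.429).

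Sorted by the modules known from structures of mammalian eIF3, a grouping chosen after the values were seen, the subunits did not move alike. The module of Eif3b, Eif3g and Eif3i summed to 463 and 471 FPKM in wild type and to 412 and 421 FPKM in the knockout, a sum that dropped by 10.9%. The module of Eif3f, Eif3h and Eif3m summed to 772 and 766 FPKM in wild type and to 799 and 791 FPKM in the knockout. All 3 genes of the first module were lower in both knockout libraries, and all 3 of the second were higher in both, though none of Eif3f, Eif3h and Eif3m passed the test (log2 fold change 0.08, 0.04 and 0.03). Of all genes tested, 31.9% were lower in both knockout libraries and 31.6% were higher in both. Eif3a, Eif3d, Eif3k and Eif3l were lower in both knockout libraries without passing (-0.08, -0.04, -0.09 and -0.08), and Eif3e overlapped. The difference between modules was not tested.

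**Figure D3:**
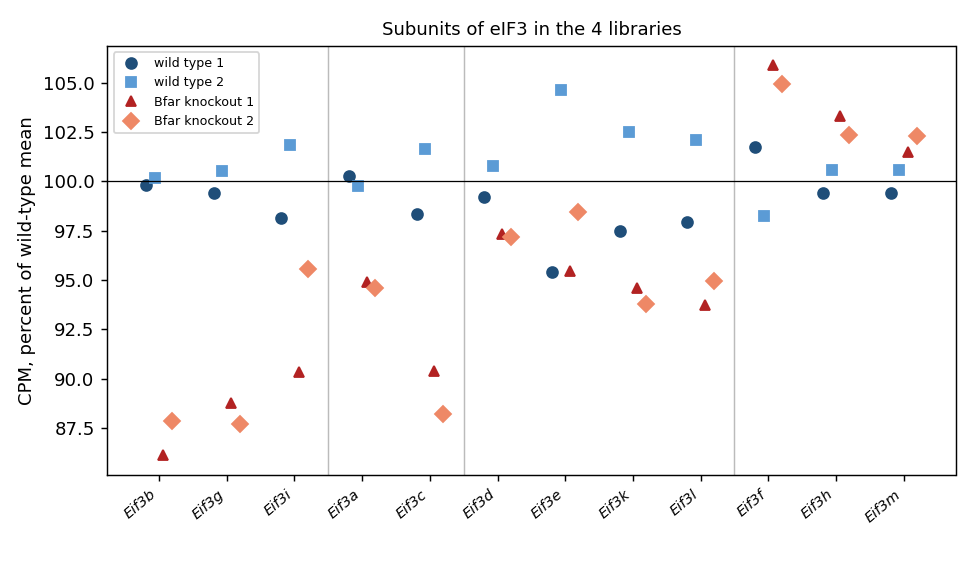
CPM of 12 eIF3 subunits in each of the 4 libraries, as a percentage of the wild-type mean of that gene. Vertical lines part the groups Eif3b, Eif3g, Eif3i, then Eif3a and Eif3c, then Eif3d, Eif3e, Eif3k, Eif3l, and last Eif3f, Eif3h, Eif3m. Both knockout symbols lie below 100 in the first group and above 100 in the last.

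The loosely bound j subunit is encoded by a pair of near-identical genes, so its values are uncertain. Eif3j2 shares 94.0% of its 31-base words with Eif3j1, and RSEM divides such reads by estimation. Eif3j2 stood at 4.59 and 5.21 CPM in wild type and at 2.49 and 2.63 CPM in the knockout (log2 fold change -0.94, SE 0.18, adjusted p = 0.00121), which rests on 48 to 103 counts per library. Eif3j1, with 2022 to 2426 counts, stood at 122 and 120 CPM against 121 and 107 CPM with overlapping groups (-0.09, SE 0.05, adjusted p = 0.236). Without the Eif3j pair the initiation core held 17 falls and 1 rise among 37 genes.

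The cap-binding assembly eIF4F is built from the cap-binding eIF4E, the scaffold eIF4G and the helicase eIF4A. The scaffold genes were lower together. Eif4g2, a scaffold-like protein that lacks the eIF4E site, stood at 1315 and 1321 CPM in wild type and at 1157 and 1133 CPM in the knockout (log2 fold change -0.20, SE 0.03, adjusted p = 0.000348). Eif4g1, the main scaffold, fell by 10.7% (-0.16, SE 0.03, adjusted p = 0.00221). The paralog Eif4g3 was at 313 and 309 CPM against 295 and 292 CPM and did not pass (-0.08, SE 0.04, adjusted p = 0.106). Summed over the 3 scaffold genes the level was 384.7 and 381.0 FPKM in wild type and 341.9 and 336.4 FPKM in the knockout.

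The cap-binding paralogs went in different directions. Eif4e, the gene that mRNA recruitment and the 4E-binding proteins turn on, fell by 9.72% (log2 fold change -0.15, SE 0.05, adjusted p = 0.0265). Eif4e2, known as a cap-binding repressor (4EHP), fell by 10.8% (-0.16, SE 0.04, adjusted p = 0.00912). Eif4e3, the least abundant of the 3, rose from 28.2 and 28.6 CPM to 32.2 and 33.8 CPM (0.22, SE 0.07, adjusted p = 0.0246). The Eif4e call was lost without wild-type library 1 (adjusted p = 0.206), without knockout library 2 (0.261, with a log2 fold change of -0.096), and with limma on log2(FPKM + 0.1) (0.0971) or log2(FPKM + 1) (0.0966). The Eif4e2 call was lost without wild-type library 1 (0.0658) and knockout library 1 (0.0944). Eif4e3 lost its call when any of the 4 libraries was left out (0.0667 to 0.166) and with DESeq2 (0.254).

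The helicase genes did not pass, yet their proportion differed. Eif4a1, the most abundant gene of eIF4F, stood at 1029 and 1049 CPM in wild type and at 1023 and 1011 CPM in the knockout (log2 fold change -0.03, SE 0.03, adjusted p = 0.546). Eif4a2 stood at 232 and 239 CPM against 255 and 247 CPM (0.09, SE 0.04, adjusted p = 0.0992). The ratio of Eif4a1 to Eif4a2 in FPKM was 7.26 and 7.20 in wild type and 6.54 and 6.64 in the knockout, without overlap and without a test. Eif4a2 hosts the small nucleolar RNAs Snora81 and Snord2. They overlap 3.33% and 1.29% of its exonic bases pooled over all annotated transcripts, so they need not lie in its mature mRNA. Rfc4 on the other strand overlaps 3.63% of these bases. The strand setting of the counting is not given, so reads of that overlap cannot be told apart.

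Of the helicase cofactors and eIF4E partners, 1 gene of 5 fell, where 13.2% of all genes tested did so. A count of 1 among 5 genes does not set this group apart from all genes. Eif4enif1 encodes the eIF4E transporter 4E-T, which binds eIF4E and represses mRNAs in processing bodies, and lies at chr11:3202343-3244588. It stood at 436 and 442 CPM in wild type and at 349 and 334 CPM in the knockout, with means of 438.8 ± 4.61 and 341.0 ± 10.7 CPM (SD, n = 2 each), and fell by 22.3%. At -0.36 on the log2 scale (SE 0.04, edgeR adjusted p = 4.96e-06) it had the largest fall among the members without a near-identical copy. The cofactors Eif4b, the most abundant of this set at 219 to 224 FPKM, and Eif4h did not pass (0.01, SE 0.03, and -0.08, SE 0.04). The 4E-binding protein genes Eif4ebp2 and Eif4ebp3, whose products block eIF4E when dephosphorylated, overlapped (-0.01, SE 0.04, and -0.04, SE 0.10). The ratio of Eif4ebp2 to Eif4e in FPKM was 3.66 and 3.78 in wild type and 4.01 and 4.20 in the knockout. That of Eif4enif1 to Eif4e went the other way, with 4.08 and 4.33 against 3.57 and 3.68. Neither ratio was tested. They leave out Eif4ebp1, a more abundant 4E-binding protein gene set aside by name. It stood at 308.4 and 306.8 FPKM in wild type and at 267.5 and 262.2 FPKM in the knockout.

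All 3 genes of the set of eIF5, eIF5B and eIF6 fell, where 13.2% of all genes tested did so. Eif6, which keeps free large subunits from joining and works in their maturation, stood at 175.2 and 174.8 CPM in wild type and at 149.5 and 146.1 CPM in the knockout (log2 fold change -0.24, SE 0.04, adjusted p = 0.000337). Eif5, the GTPase-activating protein of eIF2, stood at 357 and 371 CPM against 321 and 320 CPM (-0.18, SE 0.04, adjusted p = 0.00195). Eif5b, the subunit-joining GTPase, fell by 9.52% (-0.14, SE 0.04, adjusted p = 0.0101). The Eif5b call was lost when any of the 4 libraries was left out (adjusted p = 0.0548 to 0.0807), and 16.8% of its exonic bases overlap Rev1 on the other strand. The summed level of the 3 genes was 235.3 and 238.4 FPKM in wild type and 205.8 and 202.7 FPKM in the knockout.

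**Figure D4:**
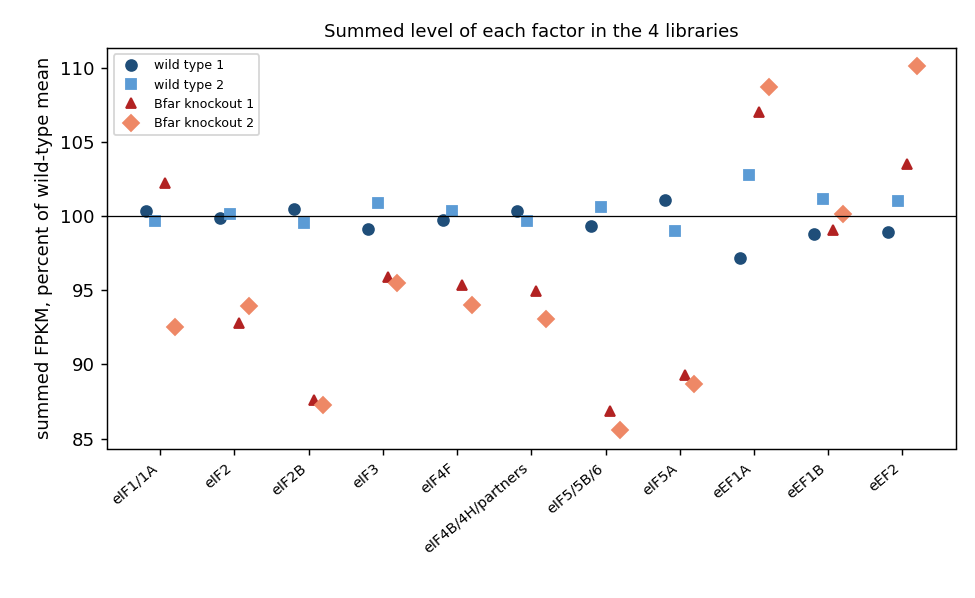
Summed FPKM of each factor in each of the 4 libraries, as a percentage of the wild-type mean. Both knockout libraries lie below both wild-type libraries for eIF2, eIF2B, eIF3, eIF4F, eIF4B with its partners, eIF5 with eIF5B and eIF6, and eIF5A, and above both for eEF1A and eEF2. Sums weight the abundant members most, such as Eif4a1 in eIF4F.

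Elongation showed both directions. Eif5a fell by 10.7%, from 1445 and 1417 CPM to 1278 and 1279 CPM (log2 fold change -0.16, SE 0.03, adjusted p = 0.00178). Its rarer paralog Eif5a2 was at 24.2 and 24.6 CPM against 21.8 and 21.8 CPM and did not pass (-0.16, SE 0.07, adjusted p = 0.124). Eef1a1 rose from 11060 and 11700 CPM to 12210 and 12430 CPM (0.11, SE 0.03, adjusted p = 0.0181). Eef2 rose from 6198 and 6330 CPM to 6503 and 6932 CPM (0.10, SE 0.03, adjusted p = 0.0426). For both genes the nearest libraries of the 2 genotypes lay closer together than the libraries of 1 genotype did.

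The log2 fold changes of the elongation genes that rose stayed positive when any library was left out, but their calls were mostly lost. Fewer of all genes tested passed in those fits too. The Eef1a1 call was lost without wild-type library 1 (adjusted p = 0.254), knockout library 1 (0.0598) and knockout library 2 (0.125). That of Eef2 was lost without wild-type library 1 (0.24), wild-type library 2 (0.0973) and knockout library 2 (0.257). The log2 fold change of Eef1a1 ran from 0.074 without wild-type library 1 to 0.156 without wild-type library 2, and that of Eef2 from 0.055 without knockout library 2 to 0.147 without knockout library 1. Neither gene passed with limma on log2(FPKM + 0.1) (adjusted p = 0.243 and 0.227). Reads of Eef1a1 can also fall on copies. Gm6548 shares 13.6% of the 31-base words of Eef1a1. It held 408 and 406 counts in wild type and 621 and 517 counts in the knockout, beside at least 219101 counts of Eef1a1. Gm13456, which is not among the listed genes, shares 33.8% of the words of Eef1a1, and its reads could not be seen. The calls of Eif5a and of Eif6, Eif5, Eif4g1, Eif4g2 and Eif4enif1 were kept when any library was left out.

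None of the 3 eEF1B genes passed. Eef1b2, an exchange subunit, was at 536 and 550 CPM in wild type and at 570 and 581 CPM in the knockout (log2 fold change 0.08, SE 0.04, adjusted p = 0.0956). The other exchange subunit, Eef1d, was at 172 and 175 CPM against 160 and 168 CPM (-0.08, SE 0.04, adjusted p = 0.182). Eef1g overlapped at 1355 and 1389 CPM against 1349 and 1358 CPM (-0.02, SE 0.03, adjusted p = 0.709).

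Among the enzymes that modify elongation factors the values were low and the calls unsteady. Eef2k, the kinase that inactivates eEF2, rose from 34.7 and 32.0 CPM to 38.1 and 37.6 CPM (log2 fold change 0.18, SE 0.06, adjusted p = 0.0478). Eef1akmt1, a lysine methyltransferase of eEF1A, stood at 16.7 and 16.6 CPM in wild type and at 14.2 and 13.4 CPM in the knockout (-0.27, SE 0.09, adjusted p = 0.0365), and is the most abundant of the 3 in FPKM. Eef2kmt overlapped (0.09, SE 0.11). The calls of Eef2k and Eef1akmt1 were lost when any of the 4 libraries was left out (adjusted p = 0.0504 to 0.312 and 0.0958 to 0.191) and with DESeq2 (0.337 and 0.321), and that of Eef2k also with limma on log2(FPKM + 0.1) (0.178).

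Of the 6 members outside the factor complexes and modifying enzymes above, 2 fell (33.3%), where 13.2% of all genes tested fell. Eif4a3, the helicase of the exon junction complex, stood at 165 and 161 CPM in wild type and at 142 and 141 CPM in the knockout (log2 fold change -0.20, SE 0.04, adjusted p = 0.00156). It shares 20.6% of its 31-base words with Gm8994, which was listed at no more than 1.77 counts. Eif1ad, a protein with an eIF1A domain, stood at 80.1 and 77.8 CPM against 66.9 and 63.6 CPM (-0.28, SE 0.05, adjusted p = 0.000654), and 15.3% of its exonic bases overlap Banf1 on the other strand. Eif2a, which is no subunit of eIF2, and Eef1e1, part of the multi-synthetase complex, lay just outside the threshold (adjusted p = 0.0555 with 0.12 and 0.0516 with -0.15). Eif4e1b, at 4 to 19 counts, did not pass (1.08, SE 0.50, adjusted p = 0.13).

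A list of 50 symbols of other genes of the pathway was examined, of which 49 were in the tables and all 49 were tested; the remaining symbol, Gcn1, is a newer name of the listed Gcn1l1. In the knockout 4 rose (8.16%) and 14 fell (28.6%), beside 13.6% and 13.2% of all genes tested, with a median log2 fold change of -0.05. DESeq2 called 10 of the list where edgeR called 18. Bzw2, an eIF5-mimic protein that competes with eIF5, stood at 122 and 121 CPM in wild type and at 97.9 and 99.6 CPM in the knockout (-0.30, SE 0.04, adjusted p = 9.16e-05). Atf4, a transcription factor whose mRNA is translated when eIF2 is phosphorylated, stood at 644 and 635 CPM against 551 and 506 CPM (-0.28, SE 0.04, adjusted p = 0.000168). Eif4ebp1, the 4E-binding protein set aside by name, stood at 296 and 295 CPM against 257 and 253 CPM (-0.21, SE 0.04, adjusted p = 0.000613). Pdcd4, an inhibitor of the eIF4A helicase, stood higher in the knockout, at 106 and 101 CPM against 85.4 and 89.1 CPM (0.25, SE 0.05, adjusted p = 0.000987).

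The arm of alternative initiation, termination and recycling held 6 falls and no rise among 12 genes, where 13.2% of all genes tested fell and 13.6% rose. Etf1, the release factor that reads stop codons, stood at 330 and 328 CPM in wild type and at 289 and 273 CPM in the knockout (log2 fold change -0.23, SE 0.04, adjusted p = 0.000589). Its GTPase partner Gspt1 stood at 338 and 328 CPM against 291 and 285 CPM (-0.21, SE 0.04, adjusted p = 0.00071). The mTORC1 and MAP kinase arm held 3 rises (23.1%) and 3 falls (23.1%) among 13 genes. The 9 genes around eIF2alpha phosphorylation were 4 kinases, the phosphatase subunits Ppp1r15a and Ppp1r15b, the kinase regulators Impact and Gcn1l1, and Atf4. Of these Ppp1r15a rose, Ppp1r15b and Atf4 fell, and none of the 4 kinases passed. Of the 8 enzymes that make hypusine or diphthamide 1 fell, and of the 7 poly(A)-binding and eIF5-mimic genes 2 fell.

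The promoters were searched because several genes of the translation machinery are known to share start-site features. RefSeq windows of GRCm38.p6, from 250 bases before to 50 after an annotated start, matched 44 of the 58 members. The hexamer CACGTG, an E-box that Myc and Max bind and that reads the same on both strands, lay in 12 of them (27.3%), in 11.8% of the tested genes with a window and in 8.09% of all genes with a window. Of these 12 members 2 rose and 3 fell, with a median log2 fold change of -0.08, and of the other 32 with a window 1 rose and 15 fell, with a median of -0.10. For the members that rose or fell, 1 match each is shown with the hexamer in capitals, 5′ to 3′ on the gene's strand, and with the place of its first base counted from the annotated start as position 0.
Eef2, chr10:81176576-81176605, plus strand, position -43: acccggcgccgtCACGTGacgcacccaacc
Eef2k, chr7:120842788-120842817, plus strand, position -31: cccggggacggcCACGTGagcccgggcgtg
Eif4e, chr3:138527192-138527221, plus strand, position -64: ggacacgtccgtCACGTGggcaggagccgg
Eif4g1, chr16:20672661-20672690, plus strand, position -54: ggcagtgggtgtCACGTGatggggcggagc
Eif5a, chr11:69921443-69921472, minus strand, position -185: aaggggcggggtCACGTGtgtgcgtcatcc

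The hexamer was thus found in genes of both directions, Eef2 and Eef2k among those that rose and Eif4e, Eif4g1 and Eif5a among those that fell. The other feature was a run of at least 4 pyrimidines, C or T in any order, from the annotated start onward. It is looser than a terminal oligopyrimidine start, through which mTORC1 controls translation of many mRNAs of the translation machinery. A match therefore does not mark a gene as having such a start, nor does a missing match exclude it. The run lay in 4 members (9.09%), beside 7.74% of the tested genes with a window. They are shown from 10 bases before the annotated start, with the run in capitals.
Eif3f, chr7:108934405-108934434, plus strand: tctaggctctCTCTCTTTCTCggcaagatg
Eif2s3x, chrX:94212632-94212661, minus strand: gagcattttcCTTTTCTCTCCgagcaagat
Eef1a1, chr9:78481705-78481734, minus strand: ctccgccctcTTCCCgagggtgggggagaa
Eif2b5, chr16:20498807-20498836, plus strand: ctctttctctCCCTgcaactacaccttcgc

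Of these 4 genes Eef1a1 rose and the other 3 did not pass, with a median log2 fold change of 0.02. The other 40 members with a window held 2 rises and 18 falls, with a median of -0.10. The start used in these cells was not measured, and a match describes letters in a window only. The composite element TGATGNAA, searched on both strands, lay in 2 members (4.55%), Eef2k and Eif2s3x, beside 2.81% of the tested genes with a window.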

How the data were processed

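RNA was measured in 4 libraries, grouped by the genotype in the labels. The submitters' processing notes name Bowtie and RSEM (no versions) and the build GRCm38 (mm10). Per the file headers, the deposited tables hold the authors' expected count, FPKM and length of every gene; FPKM is scaled by length and depth. Of pre-alignment steps, annotation release and strand setting the sources used here say nothing.

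Expected counts were rounded. The main test was edgeR's quasi-likelihood test (version 4.0.16, R 4.3.3), two-sided, with TMM and filterByExpr (minimum count 10, minimum total 15), adjusted over 12677 genes; every adjusted p in the text without another tool's name comes from it. SE is the absolute log2 fold change over the root of the F statistic. CPM uses TMM-scaled library sizes, and 3 counts equal 0.152 to 0.157 CPM. The script was tested on simulated data. Genes absent from a table were set to 0 there. No libraries were duplicates: chi-square per degree of freedom was 1.96 and 2.22 within genotypes and 11.1 to 13.6 across. The common biological coefficient of variation was 2.89%.

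Levels between genes were compared in FPKM. Shared 31-mers of GENCODE M21 transcripts mark copies (at least 20% in another listed gene): Eif3j1, Eif3j2 and Eif4a3. A further 20% check against genes outside the tables marked 8 members (Eef1a1, Eef1g, Eif2s3x, Eif3h, Eif3m, Eif4a1, Eif4a3, Eif4ebp3), whose reads such copies could share. Coordinates and promoters are RefSeq's for GRCm38. The alternatives were RLE scaling, DESeq2 1.42.0, no filter, limma 3.58.1 on log2(FPKM + 0.1) and log2(FPKM + 1), a replicate block, each library left out, and copies left out.

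The members and lists were chosen with earlier results of these data known. Named were every member past the threshold, with values per library for the 10 largest rises and falls; the most abundant member of each complex; all eEF1 and eEF2 genes; members with copies; and 6 pathway genes with the smallest adjusted p. Other members and pathway genes were named after their values were seen. No batch is named in the labels, so a batch that followed genotype cannot be told apart from it.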

Additional observations from a re-analysis of the deposited data

How the results depend on the processing

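The main counts were 4 members higher and 23 lower. DESeq2 gave 2 and 15, no filter 0 and 17, either pseudocount on FPKM 1 and 22, and leaving out 1 library 0 to 1 and 13 to 17. For the initiation core, DESeq2 gave 0 higher and 11 lower, no filter 0 higher, and leaving out 1 library 0 higher and 9 to 13 lower; its median ran from -0.114 to -0.093, that of all members from -0.098 to -0.08, and that of the elongation core from -0.037 to -0.002. For the elongation core, 0 rises were left without the filter and with either pseudocount, and 0 to 1 without 1 library; the Eif5a fall was kept throughout. RLE scaling changed none of these counts, and leaving out copies gave 4 and 21. Counts over all genes moved too: 841 higher and 736 lower with DESeq2, 1051 and 877 without the filter, 1151 and 1204 with log2(FPKM + 0.1), 1181 and 1226 with log2(FPKM + 1), and 812 to 1243 higher (6.25% to 9.56%) and 629 to 1112 lower (4.84% to 8.55%) without 1 library, against 1728 and 1670. The pathway list went from 18 calls to 10 with DESeq2. Of 27 calls, 11 were kept in all 10 alternatives that refit the genes, all of them falls, and no called member changed sign. Of 580 values recomputed over the 58 members, 12 changed sign, all of members not called and all without 1 library: over those fits Eef2kmt ran from -0.04 to 0.231, Eif1 from -0.112 to 0.063, Eif1a from -0.035 to 0.011, Eif1b from -0.0 to 0.073, Eif3e from -0.11 to 0.023, Eif3j1 from -0.185 to 0.001, Eif4b from -0.007 to 0.022, Eif4ebp2 from -0.023 to 0.013 and Eif4ebp3 from -0.077 to 0.006. With a replicate block 6 members were higher and 25 lower, beside 15.6% and 15.6% of all genes tested. The deviations of same-numbered libraries from their group means correlated at 0.00673. With 2 libraries per group this is 1 contrast, as the other pair mirrors it. It cannot show whether the shared numbers mark pairs. Leaving out 1 library leaves 1 sample in a group, which is assumed to vary like the other group. The other causes were not tested. At 4 to 19 counts, Eif4e1b is limited by depth.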

Other observations

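The length that the tables list per gene varied between libraries for 18 members, as an isoform-weighted length can. It was shorter in both knockout libraries than in both wild-type libraries for 3 of them and longer in both for none. Eif4a2 had the widest such gap, with 3083.41 and 3087.86 bases in wild type and 3064.65 and 3049.88 bases in the knockout. For Eif4h the listed lengths were 2481.03 and 2483.36 bases against 2479.08 and 2479.61 bases, and for Eif2d they were 1980.39 and 1979.53 bases against 1977.87 and 1979.33 bases. These lengths were not tested.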
